A study of Vitis vinifera with 16 samples.

Results

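Along the signal path of abscisic acid (ABA), from receptor to transcription factor, 3 transcripts were followed in berries of the grape Muscat Blanc à Petits Grains. They are the ABA receptor PYL4-like (XM_002264122.2, locus LOC100267073, 768 nt), the protein phosphatase 2C 16-like, here PP2C 16-like (XM_002280159.1, locus LOC100242262, 2056 nt), and transcript variant 3 of the ABSCISIC ACID-INSENSITIVE 5-like protein 6-like, here ABI5-like (XM_003631566.1, locus LOC100243434, 2316 nt). They were chosen by name, 3 of the 23984 transcripts in the tables, and all 3 passed the filter on low counts that left 19026 transcripts to test. The study had placed them in its own list of ABA transcripts that differed between the regions in these same samples, so the regional comparisons below are not independent of that choice.

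Berries were sampled in Gaotai (GT, Gansu) and in Changli (CL, Hebei), 2 regions that differ in climate, where the GT vines were the older ones, in the vintages 2010 and 2011. The 4 stages on the Eichhorn-Lorenz scale were E-L31 (pea-size green berries), E-L35 (véraison, the onset of ripening), E-L36 (mid-ripening) and E-L38 (harvest). Every combination gave 1 sample, 16 in all, from berries of the same cultivar without their seeds, and the same vines served in both years. Of the 24 RNA libraries, the véraison and harvest samples had 2 apiece and the remaining samples 1. The study collected 2 biological repeats per vineyard at each stage, and the repeat behind each library is not given in the sources used here. A group of region and stage therefore holds 2 samples, 1 per vintage, and region cannot be told apart from the vineyard, the vine age or anything else that differed between the sites.

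ABA is the hormone whose rise at véraison is held to start ripening in grape, a fruit that ripens without a burst of ethylene. Receptors of the PYR/PYL family bind ABA and then block phosphatases of the 2C type. With the phosphatases blocked, SnRK2 kinases are free to phosphorylate bZIP transcription factors of the ABF and ABI5 family, which switch on ABA-responsive genes. The transcripts of the receptors and phosphatases are themselves regulated by ABA in Arabidopsis, where the namesakes of the phosphatase and of the bZIP factor are HAB1 and ABF3.

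The libraries held between 3798921 and 22917077 assigned reads. Levels are given as the deposited RPKM (a read count divided by transcript length and by the mapped reads of its library), averaged over the libraries of a sample. Ratios are log2 estimates from edgeR on the read counts, with a standard error (SE), and a transcript was called where its Benjamini-Hochberg adjusted p over all 19026 transcripts was at most 0.05 and its log2 ratio at least 1 in size. The 2011 sample of GT at E-L31 stood apart from its group. Its profile correlated at 0.889 with the 2010 sample of that group and at 0.976 with the mean of GT at E-L35 (Pearson r of log2(RPKM + 1) across the tested transcripts, which are not independent replicates). Main values that use E-L31 are also given without it. Other samples also correlated best with a group of another stage, namely those of E-L36 in both regions and of CL at E-L38. The samples of CL at E-L38 correlated at 0.960 with each other. The 2010 one reached 0.980 with the mean of CL at E-L36, and the 2011 one 0.979 with that of GT at E-L36. The samples of GT at E-L38 correlated best with their own group, at 0.989. The study reported that GT berries at E-L38 held significantly more soluble solids and titratable acid than CL berries, after a shorter ripening period. Whether these differences bear on the harvest values below was not tested. The 2010 sample of GT at E-L38 had the largest share of transcripts more than 4-fold apart between its 2 libraries, 1.89% against 0.148% to 1.06% in the other 7 samples with 2 libraries.

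The receptor transcript PYL4-like was low in most samples and highest in GT berries at harvest. It had 741 reads in all over the 16 samples, all of them uniquely mapped, and its median of 2.27 RPKM was above that of 29.7% of the tested transcripts. In GT it stood at 1.03 RPKM in 2010 and 1.01 in 2011 in pea-size berries, at 2.23 and 0.485 at véraison, at 2.06 and 4.09 in mid-ripening, and at 11.4 and 19.8 at harvest. In CL the corresponding values were 3.74 and 3.64 in pea-size berries, 1.15 and 3.08 at véraison, 2.32 and 2.22 in mid-ripening, and 1.74 and 6.59 at harvest. Both GT samples of harvest thus lay above every other sample of the series, while the CL samples of all stages lay between 1.15 and 6.59 RPKM.

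**Figure D1:**
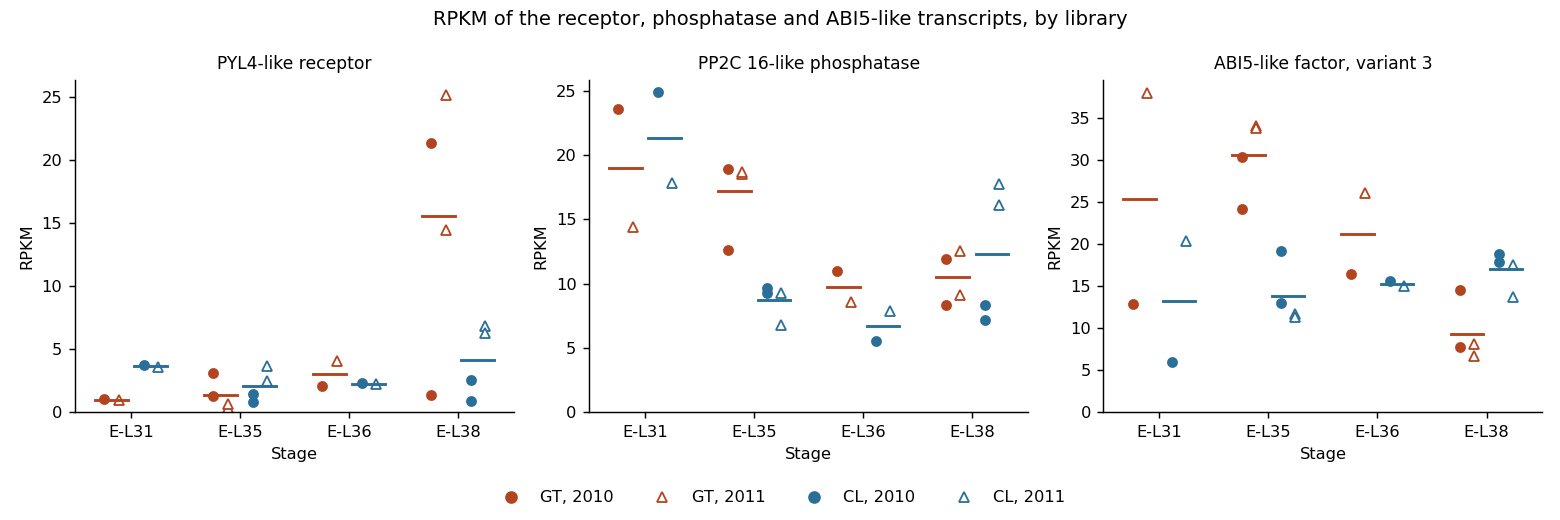
RPKM (vertical axis) of the 3 transcripts in each of the 24 libraries, by stage (horizontal axis), with GT left of CL, filled circles for 2010, open triangles for 2011 and a bar at the mean of the 2 samples of a group. PYL4-like stands near 1 RPKM in GT at E-L31 and averages 15.6 RPKM in GT at E-L38, where 1 library of 2010 lies at 1.41 RPKM.

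Averaged over the regions, PYL4-like was 2.36 higher on the log2 scale at E-L38 than at E-L31 (SE 0.57, adjusted p = 0.00633 by edgeR's quasi-likelihood test). It was the only 1 of the 3 transcripts called in that comparison, in which 27.5% of all tested transcripts were called, so a call there does not set it apart from other transcripts. The ratio was 2.41 (adjusted p = 0.0206) without the 2011 sample of GT at E-L31 and 1.66 (adjusted p = 0.0290) without the 2011 sample of CL at E-L38. The steps between neighbouring stages had log2 ratios of 0.09 (SE 0.57, adjusted p = 0.938) for E-L35 over E-L31, 0.93 (SE 0.54, adjusted p = 0.350) for E-L36 over E-L35 and 1.34 (SE 0.52, adjusted p = 0.231) for E-L38 over E-L36. Without the 2011 sample of GT at E-L31 the first of these was 0.15. No single step was called, among 4.15%, 0.436% and 0.725% of all tested transcripts called at the 3 steps in turn. An F test of any change over the 4 stages gave an adjusted p of 0.0103 for PYL4-like, 0.0479 for PP2C 16-like and 0.470 for ABI5-like, a count of 2 called among 3 where 42.2% of all tested transcripts were called. Without the 2011 sample of CL at E-L38 the adjusted p of PYL4-like in the F test was 0.0566, which ended its call.

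The level of PYL4-like at harvest in GT rested in part on 1 library. In the 2010 sample, library 1 held 97 reads (21.4 RPKM, exact 95% Poisson interval 17.3 to 26.1) and library 2 held 8 reads (1.41 RPKM, interval 0.610 to 2.78), a ratio of 15.1. The 2 libraries of the 2011 sample held 80 reads (25.2 RPKM, interval 20.0 to 31.3) and 57 reads (14.5 RPKM, interval 10.96 to 18.7). The intervals of the 2010 libraries did not overlap, and only 0.217% of the 12468 transcripts with at least 50 reads in those libraries were as far apart as PYL4-like or further. The intervals cover counting error only.

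The same pairs elsewhere were closer. Over the other 7 samples with 2 libraries the ratio of library 1 to library 2 ran between 0.340 and 2.35, from as few as 1 to as many as 84 reads. Without library 1 of the 2010 sample, PYL4-like at E-L38 was 2.10 above E-L31 on the log2 scale (adjusted p = 0.0425), which stayed called, but the F test over the stages had an adjusted p of 0.0802 and lost its call. The berry replicate behind each library is not given in the sources used here, so a difference between berries and a difference between library preparations cannot be told apart.

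**Figure D2:**
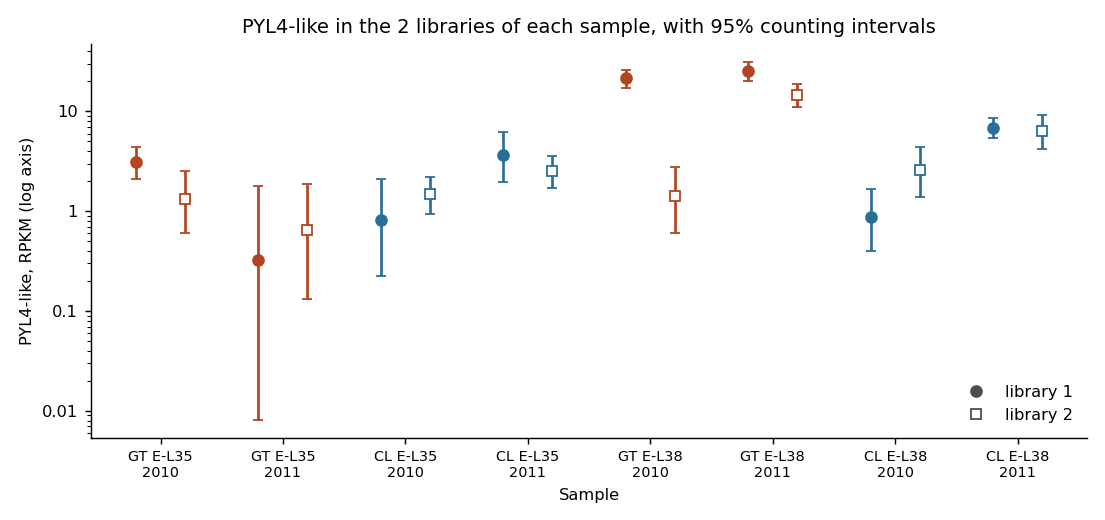
RPKM of PYL4-like on a log axis in library 1 (filled circles) and library 2 (open squares) of each sample with 2 libraries, GT left of CL within a stage, with exact 95% Poisson intervals. The libraries of GT at E-L38 in 2010 stand at 21.4 and 1.41 RPKM, the widest gap of the 8 samples.

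Between the regions, PYL4-like had opposite orders at the first and the last stage. At E-L38 GT averaged 15.6 ± 5.95 RPKM and CL 4.16 ± 3.44 RPKM (SD, n = 2 each), without overlap of the samples. At E-L31 GT averaged 1.02 ± 0.0133 RPKM and CL 3.69 ± 0.0720 RPKM (SD, n = 2 each), again without overlap, from 3 and 8 reads in the GT samples and 54 and 49 reads in the CL samples. Samples of GT and CL that do not overlap are common here, with 42.4% of all tested transcripts at E-L38 and 36.5% at E-L31.

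Neither difference passed the test. GT over CL had a log2 ratio of 1.89 (SE 0.72, unadjusted p = 0.0239, adjusted p = 0.581) at E-L38 and -1.78 (SE 0.86, unadjusted p = 0.0642, adjusted p = 0.388) at E-L31. It was -0.60 (SE 0.76, adjusted p = 0.799) at E-L35 and 0.40 (SE 0.76, adjusted p = 0.892) at E-L36. The regional ratio at E-L38 exceeded that at E-L35 by 2.49 (SE 1.04, adjusted p = 0.525) and that at E-L31 by 3.67 (SE 1.12, unadjusted p = 0.00746, adjusted p = 0.310), neither of which was called. Without the 2011 sample of GT at E-L31 that last difference for PYL4-like was 3.77 (adjusted p = 0.303). In these comparisons 0.00526% and 0.0263% of all tested transcripts were called. The F test of any difference between the regions over the stages gave adjusted p = 0.504.

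The size of the harvest difference depended on single samples. Without library 1 of GT in 2010 the log2 ratio was 1.38, and the 2010 sample then stood at 1.41 RPKM, below both CL samples. Without the 2011 sample of CL it was 3.29, and without the 2010 sample of CL 1.20. The ratio at E-L31 ranged only between -1.88 and -1.71 when each sample was left out, and it was -1.88 without the 2011 sample of GT that stood apart.

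The phosphatase transcript PP2C 16-like had its highest mean in green berries. It belongs to the family that shuts ABA signalling off until a receptor blocks it. All of its 6692 reads were uniquely mapped. In GT it had 23.6 RPKM in 2010 and 14.4 in 2011 in pea-size berries, 15.8 and 18.6 at véraison, 10.96 and 8.57 in mid-ripening, and 10.2 and 10.8 at harvest. In CL it had 24.9 and 17.8 in pea-size berries, 9.49 and 8.04 at véraison, 5.51 and 7.87 in mid-ripening, and 7.74 and 17.0 at harvest. The 4 samples of E-L31 held 3 of the 4 highest levels, the other being in GT at véraison in 2011, and the 2 samples of CL at E-L36 were among the 3 lowest. The highest sample was 4.52 times the lowest, against 40.9 times for PYL4-like.

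Over the stages, PP2C 16-like had log2 ratios of -0.43 (SE 0.20, adjusted p = 0.190) for E-L35 over E-L31, -0.34 (SE 0.20, adjusted p = 0.358) for E-L36 over E-L35 and 0.33 (SE 0.20, adjusted p = 0.457) for E-L38 over E-L36. None was called, and without the 2011 sample of GT at E-L31 the first was -0.55 (adjusted p = 0.0832). Its call in the F test of any change over the stages was fragile. The adjusted p of 0.0479 became 0.0637 with vintage as a replicate block, and leaving out each of the 16 samples in turn ended the call in 13 cases, with adjusted p-values between 0.00979 and 0.151.

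The regional ratio of the phosphatase furthest from 0 was that of véraison. At E-L35 GT averaged 17.2 ± 2.00 RPKM and CL 8.77 ± 1.02 RPKM (SD, n = 2 each), a ratio of 1.96. Each of the 4 GT libraries, at 12.6 to 18.9 RPKM, lay above each of the 4 CL libraries, at 6.83 to 9.68 RPKM. The samples of GT and CL did not overlap at that stage in 55.5% of all tested transcripts. The log2 ratio was 0.72 (SE 0.28, unadjusted p = 0.0270, adjusted p = 0.389), which was not called.

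At E-L36 the samples of GT and CL did not overlap either, at 9.77 ± 1.69 RPKM and 6.69 ± 1.67 RPKM (SD, n = 2 each), where 36.1% of all tested transcripts did not overlap, with a log2 ratio of 0.52 (SE 0.29, adjusted p = 0.564). At E-L31 the log2 ratio was -0.14 (SE 0.28, adjusted p = 0.867), and 0.10 without the 2011 sample of GT that stood apart. At E-L38 it was -0.21 (SE 0.28, adjusted p = 0.919), and 0.34 without the 2011 sample of CL. The ratio at E-L38 minus that at E-L35 was -0.93 (SE 0.40, unadjusted p = 0.0398, adjusted p = 0.539).

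The ABI5-like record carried almost no reads of its own. Of its 10820 reads over the 16 samples, 56 were uniquely mapped, or 0.518%. The rest also matched other records, and the authors' mapping shared such reads out among records by their numbers of unique reads. A second record of the same locus, XM_003631565.1, had 7660 reads of which 11 were unique. The value of transcript variant 3 is therefore for the most part a share of the locus set by between 0 and 8 unique reads per library.

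The share of variant 3 in the reads of both records followed those few reads. In the 11 libraries with unique reads of variant 3 alone, it took 65.8% to 82.7% of the reads of both records. In the 7 libraries with no unique read of either, it took 41.9% to 52.7%. In the 1 library with unique reads of XM_003631565.1 alone, 3 reads in CL at E-L31 in 2010, variant 3 took 15.2%. The 4 GT libraries of E-L35 held 14 unique reads of variant 3 and 0 of the other record, and the 4 CL libraries held 4 and 3.

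Taken as deposited, variant 3 had the larger value in GT within each vintage at the first 3 stages and the smaller one at harvest. In GT it had 12.8 RPKM in 2010 and 37.9 in 2011 in pea-size berries, 27.3 and 33.9 at véraison, 16.5 and 26.0 in mid-ripening, and 11.2 and 7.39 at harvest. In CL it had 6.04 and 20.3 in pea-size berries, 16.1 and 11.5 at véraison, 15.6 and 15.0 in mid-ripening, and 18.4 and 15.6 at harvest. The samples of the regions did not overlap at véraison, in mid-ripening or at harvest, and neither did those of 55.5%, 36.1% and 42.4% of all tested transcripts at these stages in turn. The log2 ratios of GT over CL were 1.03 (SE 0.63, adjusted p = 0.495) at E-L31 and 0.84 (SE 0.62, adjusted p = 0.639) at E-L35. They were 0.45 (SE 0.62, adjusted p = 0.842) at E-L36 and -0.79 (SE 0.63, adjusted p = 0.810) at E-L38, and none was called.

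The other record of the locus mirrored it at véraison. XM_003631565.1 had 10.8 RPKM in 2010 and 16.4 in 2011 in GT at E-L35, against 25.8 and 18.6 in CL. Its log2 ratio of GT over CL at E-L35 was -1.04 (SE 0.59, adjusted p = 0.539). With the reads of both records summed before the fit, the log2 ratio at E-L35 was 0.08 (SE 0.34, adjusted p = 0.952), where variant 3 alone had 0.84. Further records may share these reads, so the sum covers the 2 annotated records and not every read of the locus. The summed RPKM of both records at E-L35 was 38.1 in 2010 and 50.3 in 2011 in GT and 41.9 and 30.2 in CL, so that the regions overlapped.

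**Figure D3:**
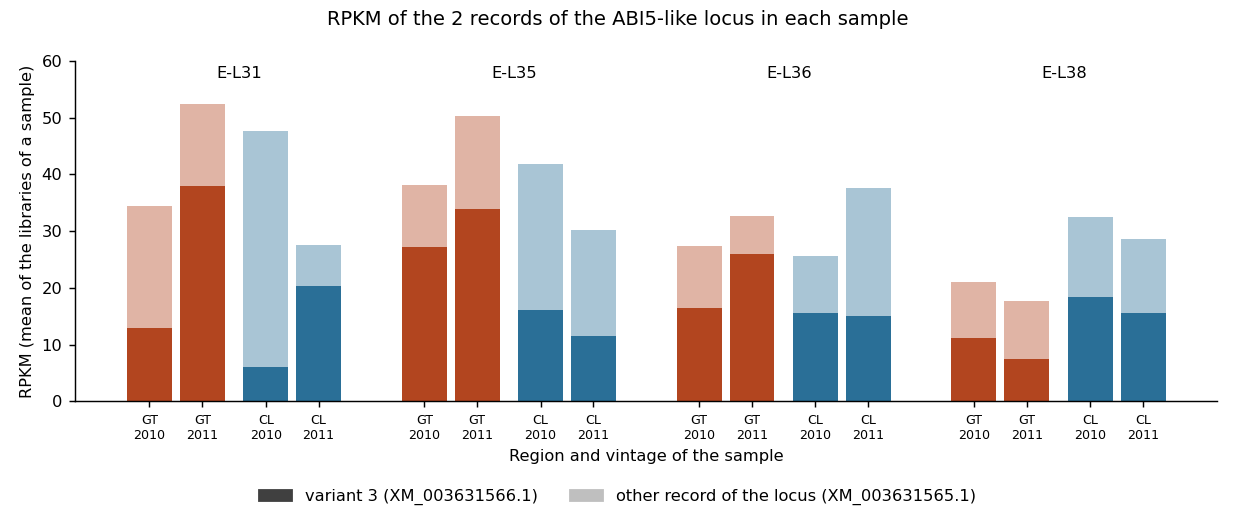
RPKM (vertical axis) of both records of the ABI5-like locus in each sample, stacked, with variant 3 in the dark lower part and XM_003631565.1 in the pale upper part, GT left of CL within each stage. At E-L35 the dark parts of GT (27.3 and 33.9 RPKM) exceed those of CL (16.1 and 11.5 RPKM), while the whole bars overlap.

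At harvest the sum kept the order of variant 3. Both records together had 21.1 and 17.7 RPKM in GT at E-L38, against 32.5 and 28.6 RPKM in CL, and each record was lower in each GT sample than in each CL sample. The log2 ratio of the summed reads was -0.68 (SE 0.34, adjusted p = 0.671), which was not called. At E-L31 it was 0.37 (SE 0.34, adjusted p = 0.670), or -0.16 without the 2011 sample of GT that stood apart, and at E-L36 -0.01 (SE 0.34, adjusted p = 1.00). Variant 3 alone at E-L31 had a log2 ratio of -0.12 without the 2011 sample of GT that stood apart, 2.23 without the 2011 sample of CL and 0.38 without the 2010 sample of CL.

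Over the stages neither variant 3 nor the sum of both records was called in any comparison. The steps of variant 3 were 0.40 (SE 0.44, adjusted p = 0.580) for E-L35 over E-L31, 0.10 (SE 0.44, adjusted p = 0.927) for E-L36 over E-L35 and -0.69 (SE 0.44, adjusted p = 0.482) for E-L38 over E-L36. With the reads summed these were 0.26, -0.08 and -0.50, each with an SE of 0.24, and the F test over the stages gave adjusted p = 0.211. Without the 2011 sample of GT at E-L31 the first step was 0.98 for variant 3 and 0.53 for the sum, and the F test on the sum gave adjusted p = 0.0751, none of them called. The mean RPKM of both records together over the 4 samples of a stage was 40.6 in pea-size berries, 40.1 at véraison, 30.8 in mid-ripening and 25.0 at harvest.

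**Figure D4:**
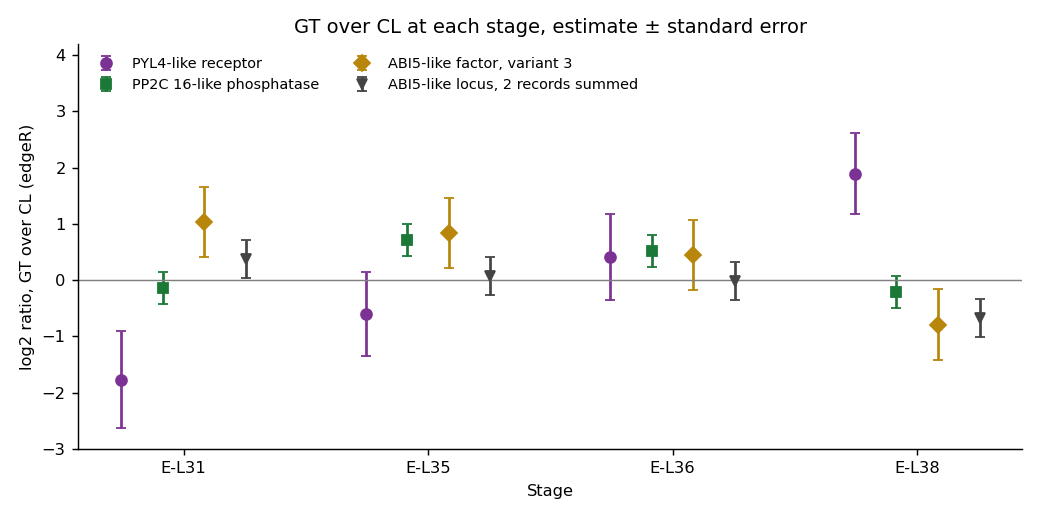
Log2 ratio of GT over CL from edgeR (vertical axis) at each stage (horizontal axis), with bars of 1 standard error, for the 3 transcripts and for both records of the ABI5-like locus summed. At E-L35 the ABI5-like record lies at 0.84 and the sum at 0.08, and at E-L38 only PYL4-like lies above 0.

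None of the 3 transcripts was called between the regions at any stage, and calls of that kind were rare among all transcripts. Of the 19026 tested, edgeR called 0% in pea-size berries and 0% at véraison, 0.021% in mid-ripening and 0.00526% at harvest. With unadjusted p under 0.05 there were 2654, 2176, 1937 and 1487 transcripts at the 4 stages in turn, and DESeq2 called 462, 148, 136 and 102. The 3 transcripts were not called by DESeq2 either, with adjusted p = 0.301 for PYL4-like at E-L38 and adjusted p = 0.260 for PP2C 16-like at E-L35. 

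No difference between the vintages was called for any of the 3. The log2 ratio of 2011 over 2010, averaged over regions and stages, was 0.50 (SE 0.39, adjusted p = 0.863) for PYL4-like, 0.01 (SE 0.15, adjusted p = 0.996) for PP2C 16-like and 0.29 (SE 0.33, adjusted p = 0.913) for ABI5-like. In this comparison 0% of the transcripts were called by edgeR, with 1349 at an unadjusted p under 0.05, and DESeq2 called 22.

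Set side by side as RPKM, which is scaled to length, the 3 transcripts kept one order in most samples. In 11 of 16 samples ABI5-like was highest, PP2C 16-like next and PYL4-like lowest. The 2010 samples of both regions at E-L31 and the 2011 sample of CL at E-L38 had PP2C 16-like above ABI5-like, with PYL4-like still lowest. Only in the 2 samples of GT at harvest was PYL4-like the highest of the 3, and in 2010 this came from library 1 (21.4 RPKM, against 11.9 for PP2C 16-like and 7.82 for ABI5-like). In library 2 of that sample PYL4-like was the lowest, at 1.41 RPKM against 8.38 for PP2C 16-like and 14.5 for ABI5-like. With both records summed, ABI5-like was first in 15 of the 16 samples, all but the 2011 sample of GT at E-L38.

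The order of the groups was less clear. For PYL4-like, GT at E-L38 came first and did not overlap with CL at E-L38, the next group, while each of the remaining neighbours overlapped, down to GT at E-L31. For PP2C 16-like the order ran from CL and GT at E-L31 through GT at E-L35 to CL at E-L35 and CL at E-L36, and all neighbours overlapped except the last pair. For ABI5-like it ran from GT at E-L35 to GT at E-L38, and every pair of neighbours overlapped. Within GT, the highest group of ABI5-like was thus the véraison stage, where PYL4-like was among its lowest, and the lowest group of ABI5-like was harvest, where PYL4-like was highest.

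The balance between members was compared within samples. At harvest the log2 ratio of PYL4-like over PP2C 16-like was 0.17 in 2010 and 0.87 in 2011 in GT, against -2.16 and -1.36 in CL. At E-L31 it was -4.52 and -3.84 in GT, against -2.73 and -2.29 in CL. The 2010 value of GT at harvest came from libraries at 0.84 and -2.57, of which the second lay below the -2.16 of the CL sample. Over all 8 pairs of samples matched on stage and vintage the mean difference, GT minus CL, was -0.35 (SD 2.14, positive in 4 of 8 pairs). The two-sided exact sign-flip permutation test of that mean gave p = 0.648. The differences were -1.78 and -1.54 at E-L31 but 2.32 and 2.23 at E-L38. Opposite signs cancel in a mean over the stages, so the test cannot decide whether the balance differed at a single stage.

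Averaged over the stages, the other ratios of the 3 transcripts did not pass the test either. Their differences also had opposite signs at E-L31 and at E-L38, so the same limit holds. ABI5-like over PP2C 16-like differed by 0.12 (SD 0.89, positive in 5 of 8 pairs, exact permutation p = 0.703), and PYL4-like over ABI5-like by -0.48 (SD 2.71, positive in 4 of 8 pairs, exact permutation p = 0.625). Adjusted over the 3 ratios, p was 0.703 for each, and the smallest unadjusted p that 8 pairs allow is 0.00781. With both records summed, the ratio of ABI5-like over PP2C 16-like was -0.35 on average, lower in GT in 7 of 8 pairs (exact permutation p = 0.195).

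The profiles of the 3 transcripts were compared over the 16 samples. Pearson's r of log2(RPKM + 1) was -0.12 between PYL4-like and PP2C 16-like, -0.59 between PYL4-like and ABI5-like and -0.01 between PP2C 16-like and ABI5-like, values that describe samples sharing stages, regions and library scaling. PP2C 16-like had many transcripts close to it, with r of 0.8 or more for 7.25% of the tested transcripts, against 0.189% for PYL4-like and 0.0315% for ABI5-like. The ABI5-like profile is that of variant 3 alone, so its r values and closest transcripts carry the split of shared reads described above. The profile of PYL4-like rests on few reads.

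Of the 5 transcripts most like PP2C 16-like, with r between 0.951 and 0.956, the first was XM_002271656.2, which the study annotates as homeobox-leucine zipper protein HAT5-like and which ranged from 22.8 to 167 RPKM. The 5 closest to PYL4-like had r between 0.888 and 0.933. They were led by XM_003632720.1 (LOC100853579), with at most 14.1 RPKM and 526 reads. The 5 closest to ABI5-like had r between 0.811 and 0.846, led by XM_002283391.2 at 0.889 to 9.42 RPKM.

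The study listed 8 further ABA transcripts beside these 3, chosen like them on these samples. Between E-L31 and E-L38, 6 of the 8 were called, 3 higher and 3 lower, against 9% of all tested transcripts higher and 18.5% lower. The list of 11 had a median log2 ratio of -0.19, and all tested transcripts 0.00. The listed receptor of the same family, PYR1-like (XM_002280325.1), rose by 1.25 on the log2 scale (SE 0.22, adjusted p = 0.00118), and the kinase SAPK7-like (XM_002267886.1), named after a rice kinase of the SnRK2 family, had -1.74 (SE 0.22, adjusted p = 0.000230) with 16.7% of its reads unique. Without the 2011 sample of GT at E-L31, 7 of the 8 were called, 3 higher and 4 lower, the addition being the phytoene synthase record XM_002271539.2 at -1.06.

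The listed transcripts of carotenoid metabolism, from which ABA is made, went both ways. The carotenoid cleavage dioxygenase 4-like transcript (XM_002270125.1) rose by 4.62 on the log2 scale (adjusted p = 0.000268), or by 6.45 without the 2011 sample of GT at E-L31. The phytoene synthase record XM_002283157.2, with 4.61% of its reads unique, had 1.03 as an average over the regions (adjusted p = 0.00600). Its mean went from 5.42 RPKM in pea-size berries to 14.4 RPKM by harvest in CL. GT showed no such rise, with means of 20.0 and then 19.1 RPKM. The regional ratio of that record changed by -1.51 between these stages, which was not called (adjusted p = 0.326). The call of XM_002283157.2 was lost without the 2011 sample of CL at E-L31 (0.96), the 2010 sample of CL at E-L38 (0.76) or the 2010 sample of GT at E-L31 (0.88), through a log2 ratio under 1. The capsanthin/capsorubin synthase-like transcript (XM_002273826.1) had -3.03 (adjusted p = 0.00220) and XM_002269369.2 -1.75 (adjusted p = 0.00671). The phytoene synthase record XM_002271539.2, at -0.90, and the ABA 8'-hydroxylase 4-like transcript (XM_002282197.1), of an enzyme that breaks ABA down, at 0.50, were not called.

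**Figure D5:**
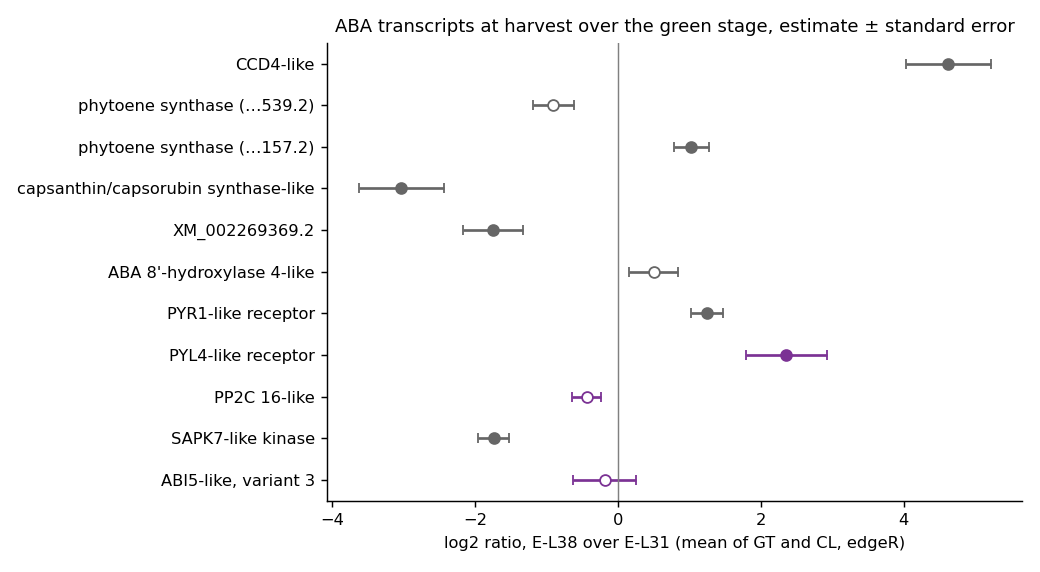
Harvest (E-L38) over pea-size (E-L31) berries as a log2 ratio averaged over GT and CL (horizontal axis), with bars of 1 standard error, for the 11 ABA transcripts of the study's list, in purple for the receptor PYL4-like, PP2C 16-like and ABI5-like and in grey for the others. Filled points were called, among them PYL4-like at 2.36 and PYR1-like at 1.25, and open points such as PP2C 16-like at -0.44 were not.

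The receptors PYR1-like (XM_002280325.1) and PYL4-like were set side by side, without a test between them. At the step into véraison, E-L35 over E-L31 averaged over the regions, PYL4-like had a log2 ratio of 0.09. PYR1-like had 1.30 (adjusted p = 0.0288) and was called there, among 4.15% of all tested transcripts. It was 1 of 3 called there among the 8 further listed transcripts. The others were XM_002270125.1 (2.185, adjusted p = 0.0438) and XM_002283157.2 (1.248, adjusted p = 0.0322), whose calls also depended on single samples. From E-L31 to E-L35 the mean of XM_002270125.1 went from 6.94 (samples at 0.663 and 13.2) to 13.0 RPKM in GT and from 5.43 to 48.1 in CL. That of XM_002283157.2 went from 20.0 to 23.5 RPKM in GT and from 5.42 to 18.6 in CL. That call of PYR1-like was lost in 6 of the 16 cases when a sample was left out, namely any 1 of the 4 samples of E-L35, the 2011 sample of CL at E-L31 or the 2010 sample of GT at E-L38, with adjusted p between 0.00366 and 0.125 over the 16 and a log2 ratio between 1.18 and 1.45. PYR1-like stood at 34.6 and 39.1 RPKM in GT at E-L31, against 31.3 and 19.9 RPKM in CL. At E-L35 it stood at 41.9 and 40.5 RPKM in GT, against 88.8 and 111 RPKM in CL. Its rise into véraison thus lay mainly in CL. At E-L38 it stood at 55.0 and 54.8 RPKM in GT, against 51.7 and 62.3 RPKM in CL. Its GT and CL samples did not overlap at véraison, where those of 55.5% of all tested transcripts did not, and its log2 ratio of -1.50 there was not called (adjusted p = 0.238). No transcript of the list of 11 was called between the regions at any stage with all samples. For GT over CL at E-L31 without the 2010 sample of GT, XM_002270125.1 (1.42, adjusted p = 0.0367) and XM_002283157.2 (2.26, adjusted p = 0.0108) were called there, with GT set by its 2011 sample alone, the one that stood apart.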

How the data were processed

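Strand-specific libraries were sequenced on an Illumina instrument. The authors trimmed the reads and mapped them with CLC Genomics Workbench to the RefSeq mRNAs of grape, and reads with several hits were divided among records in proportion to unique reads. For each library the deposited tables hold counts of all assigned reads, counts of uniquely mapped reads and RPKM, scaled by the authors to transcript length and library total. Of the columns of values, 0 belonged to no sample.

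Counts were summed over the libraries of a sample (24 libraries, 16 samples, 3798921 to 26627006 reads per sample), and RPKM was averaged. A transcript entered the tests with 10 counts or more in 2 samples or more, which 19026 of 23984 did. edgeR 4.0.16 (R 4.3.3) fitted 8 groups of region and stage with TMM factors, using the vintages as replicates, so that p-values measure the spread between single samples of 2 years. Quasi-likelihood tests gave log2 ratios, tests of differences between regional ratios and F tests on the stages, with Benjamini-Hochberg adjustment. Ratios of 2 transcripts were compared with exact sign-flip permutation tests. Intervals are exact Poisson at 95%. DESeq2 1.42.0, limma 3.58.1 and other settings served as alternatives.

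The samples of a vintage deviated from their group means with correlations between -0.30 and 0.35 over the 28 pairs of groups, 8 of them above 0.1. The vintage is named in the labels, marks a shared season, and entered as a block in an alternative fit.

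The transcripts, the ABA list and the tests were chosen with earlier results of these data known. Named were the 3 transcripts, the 5 most like each by Pearson's r over 16 samples, and the study's ABA list. The record XM_003631565.1 was singled out after its values were seen. Gene descriptions in the reference table used here were too few to check keyword families or markers of seed and green tissue, so the tissue label was not checked. Coordinates and sequences were not used here. Fold changes and p-values in the study's supplements were not used.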

Additional observations from a re-analysis of the deposited data

Results flagged for a closer look

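In 6 cases the ratio of GT over CL pointed one way in both vintages at one stage and the other way in both vintages at another stage. With 2 vintages per stage such patterns are easily met. Their share among all tested transcripts was not counted, so the 6 cases do not set the 3 transcripts apart from others. The mean log2 ratio of RPKM for PYL4-like was 2.15 at E-L38 and -1.86 at E-L31, a difference of 4.01. The edgeR test of this difference gave adjusted p = 0.310. For ABI5-like it was -0.90 at E-L38, which differed by -1.89 from E-L31 (edgeR adjusted p = 0.482), by -2.05 from E-L35 (edgeR adjusted p = 0.630) and by -1.33 from E-L36, where the difference was not tested on its own. With both records of its locus summed these 3 cases were not met, since GT over CL then had opposite signs in 2010 and 2011 at E-L31 (-0.47 and 0.93), at E-L35 (-0.14 and 0.74) and at E-L36 (0.10 and -0.20).

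For PP2C 16-like the mean log2 ratio of RPKM was -0.19 at E-L31 and 0.97 at E-L35, a difference of 1.17, and 0.56 at E-L36, a difference of 0.75. These differences were not tested on their own. The F test of any regional difference over the stages gave adjusted p = 0.504 for PYL4-like, 0.580 for PP2C 16-like and 0.691 for ABI5-like. The count called in that F test was 0 of 19026 transcripts by edgeR, with 1779 at an unadjusted p under 0.05, and 5 by limma on log2(RPKM + 1).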

How the results depend on the processing

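Of 344 values of the results under other settings, 330 kept their direction and side of the threshold. Most results were not called to begin with, so for most values this meant staying uncalled. The 4 values that lost a call were all of the F tests over the stages. With limma on log2(RPKM + 0.1) and log2(RPKM + 1), the step E-L35 over E-L31 of PYL4-like turned to -0.43 and -0.27 and the step E-L36 over E-L35 of ABI5-like to -0.19 in both. That scaling moved the median of all transcripts to -0.19 and -0.23 at these steps with log2(RPKM + 1). With both records of the locus summed, which was chosen after seeing the data, ABI5-like had -0.011 for GT over CL at E-L36, -0.081 for E-L36 over E-L35 and -0.35 for its ratio over PP2C 16-like. The sum without the 2011 sample of GT at E-L31 had -0.16 for GT over CL at E-L31. Without library 1 of GT at E-L38 in 2010, also chosen after seeing the data, the F test over the stages had adjusted p = 0.0802 for PYL4-like and 0.0537 for PP2C 16-like. For PP2C 16-like it was 0.0536 with no filter on low counts and 0.0637 with vintage as a replicate block, and the block changed no other call of the 3 transcripts. ABI5-like had too few uniquely mapped reads to be fitted on them. With each library as its own value, PP2C 16-like at E-L35 had a log2 ratio of 0.73 and adjusted p = 0.0466, still under the minimum size. That setting counts the libraries of 1 sample as replicates, so its p-values are too small.

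Leaving out each sample in turn, with the lone sample of a group taken to vary like the others, gave 552 values with those of the pairs, of which 17 turned direction and 14 lost a call. The adjusted p of the F test over the stages ran between 0.00493 and 0.0566 for PYL4-like, lost only without the 2011 sample of CL at E-L38, and between 0.00979 and 0.151 for PP2C 16-like. For PYL4-like the log2 ratio of GT over CL ran between -2.17 and 0.024 at E-L35 and between -0.31 and 0.87 at E-L36, and the step E-L35 over E-L31 between -0.70 and 0.40. For PP2C 16-like it ran between -0.41 and 0.10 at E-L31 and between -0.60 and 0.34 at E-L38. For ABI5-like it ran between -0.12 and 2.23 at E-L31 and between -0.044 and 0.81 at E-L36, with E-L36 over E-L35 between -0.15 and 0.30 and E-L38 over E-L31 between -0.51 and 0.41. The ratios between transcripts, without each pair in turn, ran between -0.034 and 0.30 for ABI5-like over PP2C 16-like, between -1.03 and 0.061 for PYL4-like over ABI5-like and between -0.74 and 0.15 for PYL4-like over PP2C 16-like.

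The counts of called transcripts depended on the setting. Those between the regions ran from 0 to 462 at E-L31, 0 to 671 at E-L35, 0 to 136 at E-L36 and 0 to 325 at E-L38 with all samples, against 0, 0, 4 and 1 in the report, and from 0 to 749, 4, 5 and 7 at these stages in turn when a sample was left out. Those of E-L35 over E-L31 ran from 574 to 2107 with all samples, against 790. They ran from 0 (without the 2010 sample of CL or the 2011 sample of GT at E-L35, with 4003 and 3990 at an unadjusted p under 0.05) to 2598 without the 2011 sample of GT at E-L31. They were 3 without the 2010 and 83 without the 2011 sample of GT at E-L38. Of the counts with all samples, 671 at E-L35, 325 at E-L38 and 2107 for E-L35 over E-L31 came from each library as its own value. That setting enters the 2 libraries of a sample as replicates, which overstates the number of samples. The 574 came from leaving out library 1 of GT at E-L38 in 2010. Reads of PYL4-like were few, with 1 to 97 per library, and its edgeR ratios had the largest standard errors of the 3. Those of ABI5-like do not cover how its shared reads were split between records.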
